A study of Homo sapiens with 8 samples.

Results

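The genes described here are 8 members of the zinc and metallothionein system, chosen by symbol from the 60230 genes of the count table: the metallothioneins MT1E, MT1F, MT1G, MT1M, MT1X and MT2A, the zinc sensor MTF1 and the zinc exporter SLC30A1. They were measured by RNA sequencing in HepG2 cells, a human hepatoblastoma-derived liver line, made to overexpress the drug-metabolizing enzyme cytochrome P450 2C19 and grown under blasticidin. The study exposed these cells for 24 h to the solvent DMSO or to 1 of 3 plastic-related compounds, which the study numbers 4, 5 and 6 and the labels call metylcresol, tetrabut and cyclohexil, to ask whether such compounds harm liver cells. All 3 are antioxidants built of a pair of linked phenol rings. Compounds 4 and 6 share the methylene bridge and the methyl group on each ring and differ in 1 place, tert-butyl in compound 4 and cyclohexyl in compound 6. In compound 5 the bridge carbon carries a methyl group, and tert-butyl groups stand in place of the methyl groups on the rings as well. Each was given at its own 50% inhibitory concentration for these cells, read from an assay longer than this exposure. The molar doses were close but not equal, and viability at the time of sampling was not part of these data. Each of the 4 groups had 2 samples, labelled day 1 and day 2 and called replicate 1 and replicate 2 here. No label says that the samples came from separate cultures, so the p-values measure the spread between these samples, which may be in part technical. All groups carry the overexpressed enzyme, and cells without it were not analysed here.

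Metallothioneins are small cysteine-rich proteins that bind zinc, copper and cadmium and buffer free zinc in the cell. When free zinc or cadmium rises, the zinc-finger factor MTF1 binds to metal response elements, short DNA motifs with the core TGCAC or TGCGC, in the promoters of the metallothionein genes and of SLC30A1, which encodes the plasma membrane zinc exporter ZnT1. The liver is a main site of metallothionein synthesis, and the genes also respond to glucocorticoids and to oxidants.

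Total counts per library lay between 9791659 and 17814595, and 13400 genes passed the filter on low counts and were tested. Of the 8 members, 7 were tested, and MT1M was too low. The hepatocyte markers albumin (ALB, 14370 to 20660 counts per 1000000, CPM), AFP (4598 to 8999 CPM) and HNF4A (254 to 327 CPM) were present in every library. Of 10 markers of other cells, the leukocyte gene PTPRC and the fibroblast gene COL1A2 were at 0 in all 8 libraries. The 4 that passed the filter were EPCAM, VWF, CD68 and ACTA2. EPCAM was the most abundant, at 131.0 to 176.4 CPM, and VWF the least, at 0.09811 to 1.232 CPM. Neither EPCAM nor VWF was called against DMSO under any compound. Of these 4, the macrophage and lysosome gene CD68 was higher under compound 4 (log2 0.80, adjusted p = 0.0164) and the smooth muscle actin ACTA2 lower under compound 5 (-0.997, adjusted p = 0.032) in the edgeR test, and their part in the results was not tested. In bulk RNA, a change in the number of cells of a state and a change in RNA per cell cannot be told apart.

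The metallothionein members lie together on the long arm of chromosome 16. On GRCh38 (GENCODE 29) their order is MT2A (16:56608199-56609497), MT1E (16:56625475-56627112), MT1M (16:56632233-56633986), MT1F (16:56657694-56660698), MT1G (16:56666731-56668065) and MT1X (16:56682424-56684196), with MT1G alone on the minus strand. MTF1 (1:37809567-37859620) and SLC30A1 (1:211571568-211578742) are on the minus strand of chromosome 1. All 8 are protein-coding. MT1X overlaps another annotated gene on the same strand and MTF1 overlaps one on the opposite strand. Neither partner passed the filter. The metallothioneins are close copies of each other, so estimated counts could move between them, and a sum over the family is given below beside the single genes.

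Promoter sequences are shown because the members differ in how many metal response elements lie just upstream of their RefSeq start. The set of RefSeq promoters used here (GRCh38.p14) held 4 of the 8 members, MT2A, MT1X, SLC30A1 and MTF1. Each line below holds the 250 bases before the RefSeq start, read 5′ to 3′ on the gene's strand, and capitals mark each match to TGCACNC or TGCGCNC on either strand. The windows are chr16:56608334-56608583 (plus strand) for MT2A, chr16:56682220-56682469 (plus) for MT1X, chr1:211579162-211579411 (minus) for SLC30A1 and chr1:37859593-37859842 (minus) for MTF1. The MT2A window, and the ends of those of MT1X and MTF1, lie inside the GENCODE 29 span of the gene, since GENCODE holds an earlier start. For SLC30A1 GENCODE holds a later start, at 211578742, so its window lies wholly upstream of that start and does not adjoin it. Matches next to the GENCODE starts were not counted.
MT2A: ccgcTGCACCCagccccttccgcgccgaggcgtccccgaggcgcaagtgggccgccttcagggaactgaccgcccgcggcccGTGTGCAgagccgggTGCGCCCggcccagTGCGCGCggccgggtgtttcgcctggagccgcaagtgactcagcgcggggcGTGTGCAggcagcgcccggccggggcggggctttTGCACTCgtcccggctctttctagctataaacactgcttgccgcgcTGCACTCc
MT1X: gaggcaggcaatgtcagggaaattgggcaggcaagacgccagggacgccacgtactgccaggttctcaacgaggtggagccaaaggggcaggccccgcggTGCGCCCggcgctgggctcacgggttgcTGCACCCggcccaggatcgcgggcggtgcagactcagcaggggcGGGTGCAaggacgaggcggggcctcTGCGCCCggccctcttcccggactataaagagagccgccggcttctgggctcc
SLC30A1: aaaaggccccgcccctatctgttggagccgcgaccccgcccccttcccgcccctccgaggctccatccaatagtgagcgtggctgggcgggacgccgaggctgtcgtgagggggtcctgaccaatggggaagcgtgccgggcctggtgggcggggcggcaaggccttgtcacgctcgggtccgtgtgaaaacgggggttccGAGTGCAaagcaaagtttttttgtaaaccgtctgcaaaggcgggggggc
MTF1: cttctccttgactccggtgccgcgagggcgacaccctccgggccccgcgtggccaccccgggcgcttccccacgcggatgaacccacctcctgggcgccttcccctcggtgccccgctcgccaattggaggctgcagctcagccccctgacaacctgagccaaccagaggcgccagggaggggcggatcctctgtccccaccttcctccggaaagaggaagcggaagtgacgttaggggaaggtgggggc

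The MT2A window held 7 matches, that of MT1X 4, that of SLC30A1 1 and that of MTF1 0. Among 35116 RefSeq promoters of the same length, 24.8% held at least 1 match, 0.37% at least 4 and 0.0313% at least 7. The antioxidant response element core, searched as TGACNNNGC on either strand, matched once in each of the MT2A, MT1X and SLC30A1 windows and in 10.9% of all promoters. The forward TATA box TATAAA was found at MT2A and MT1X and in 6.8% of all promoters. These matches describe letters in a window, and binding was not measured.

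Compounds 4 and 5 raised 6 of the 7 tested members, namely MT2A, MT1E, MT1G, MT1X, MT1F and SLC30A1, and MTF1 did not pass the test under either. MT2A rose most, 5.85-fold under compound 4 and 4.67-fold under compound 5. Compound 6 raised only MT2A past the threshold, 2.52-fold. The share of all tested genes called was 9.51% under compound 4 (5.6% higher), 8.3% under compound 5 (5.35% higher) and 0.575% under compound 6 (0.493% higher). The median log2-fold change of the 7 tested members was 1.32, 1.66 and 0.14 under compounds 4, 5 and 6, beside 0.01, 0.004 and 0.02 over all tested genes. Both treated libraries stood above both DMSO libraries for 6, 6 and 3 of the 7 members under compounds 4, 5 and 6, as they did for 30.4%, 31.0% and 29.3% of all tested genes. These 3 comparisons share the DMSO libraries, so their values are given side by side and their likeness is not tested.

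MT2A, the main metallothionein isoform of most human tissues, had 38.3 and 40.0 CPM in the DMSO libraries, 195.7 and 262.8 under compound 4, 184.3 and 182.2 under compound 5 and 74.7 and 122.5 under compound 6. The groups rose from DMSO through compound 6 and compound 5 to compound 4 without overlap between any pair. The log2-fold change against DMSO was 2.55 ± 0.22 (SE, adjusted p = 0.00116 by the Benjamini-Hochberg method in the quasi-likelihood test of edgeR) under compound 4 and 2.22 ± 0.22 (adjusted p = 0.00193) under compound 5. Under compound 6 it was 1.33 ± 0.22, and its adjusted p of 0.0471 in the edgeR test lay just inside the threshold of 0.05. The step from compound 5 to compound 4, 1.25-fold with an interval of 0.909 to 1.72, was not past the threshold (adjusted p = 0.458, edgeR). MT2A under compounds 4 and 5 also passed in each of the 8 fits that left out 1 library. Where such a fit left 1 library in a group, that library was assumed to vary like those of the other groups. The call under compound 6 was lost without DMSO replicate 1, DMSO replicate 2 or compound 6 replicate 2, with adjusted p up to 0.437, in fits that called 5, 2 and 4 genes in all.

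**Figure D1:**
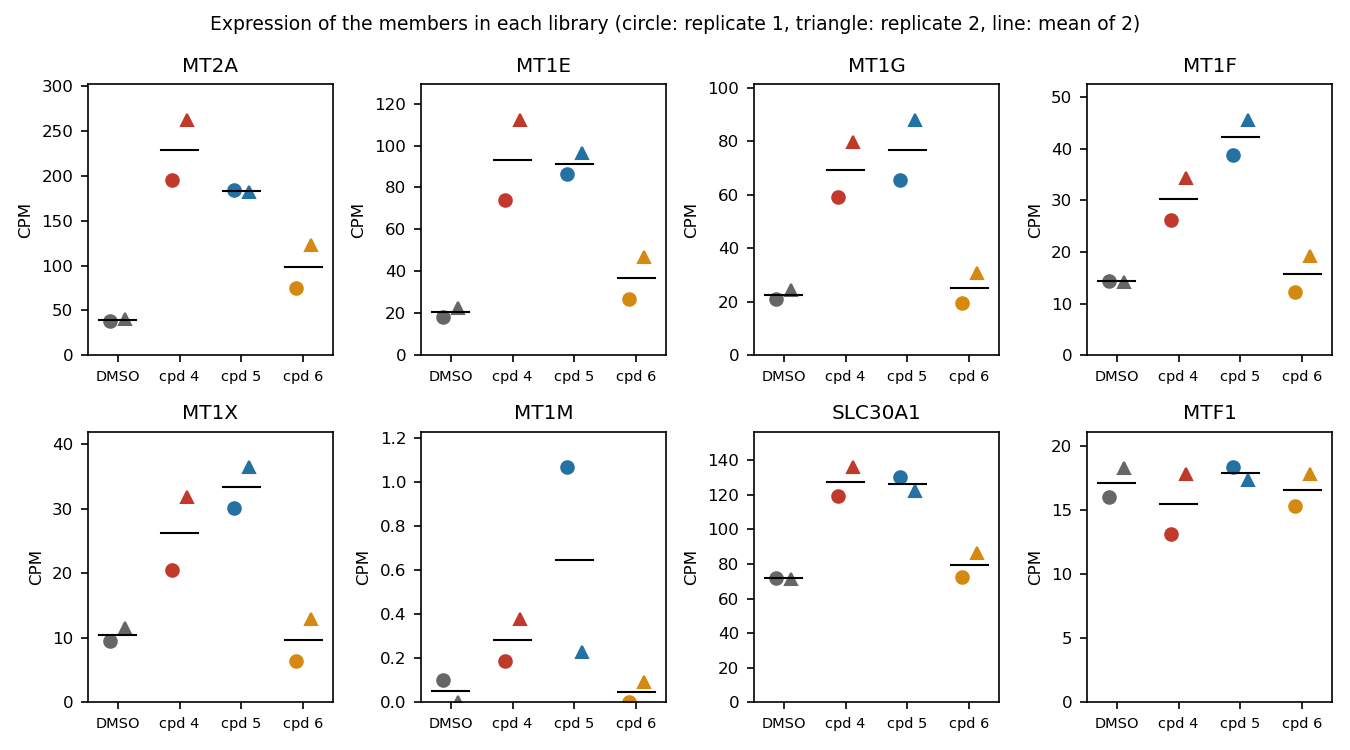
Expression of each member in CPM (vertical axes, each from 0) in the 4 groups (horizontal axes), with a circle for replicate 1, a triangle for replicate 2 and a line for the mean of 2. The metallothioneins and SLC30A1 stand higher under compounds 4 and 5 than in DMSO, MT2A is also higher under compound 6 (74.7 and 122.5 against 38.3 and 40.0 CPM), and MTF1 overlaps between all groups.

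MT1E was the second member in size of change. It had 18.1 and 22.6 CPM in DMSO, 74.1 and 112.3 under compound 4, 86.4 and 96.3 under compound 5 and 26.8 and 46.9 under compound 6. Compounds 4 and 5 overlapped each other and stood far above DMSO, and both compound 6 libraries lay between. The change against DMSO was 2.19 ± 0.27 on the log2 scale (adjusted p = 0.00391) under compound 4 and 2.16 ± 0.27 (adjusted p = 0.00475) under compound 5 in the edgeR test, or 4.57-fold and 4.47-fold. Under compound 6 it was 0.85 ± 0.27 and did not pass (adjusted p = 0.15, edgeR), with an interval of 1.18 to 2.76 in fold. DESeq2, which called 4.08% of all genes there, called MT1E as the second member beside MT2A (adjusted p = 0.02). Without DMSO replicate 1 the compound 5 call was lost, with an adjusted p of 0.053 and a log2-fold change still within 2.00 to 2.34.

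MT1G, a metallothionein studied as a silenced gene in liver tumours, had 20.9 and 24.2 CPM in DMSO, 59.2 and 79.6 under compound 4, 65.5 and 88.0 under compound 5 and 19.3 and 30.6 under compound 6. The compound 6 libraries fell on either side of both DMSO libraries, and the libraries of compounds 4 and 5 were interleaved above them. Its log2-fold change was 1.62 ± 0.24 under compound 4 (adjusted p = 0.00611) and 1.77 ± 0.24 under compound 5 (adjusted p = 0.00545), both by edgeR. Under compound 6 it was 0.15 ± 0.24, which leaves an interval of 0.756 to 1.62 in fold.

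MT1F and MT1X were the least abundant tested metallothioneins. MT1F had 14.5 and 14.2 CPM in DMSO, 26.2 and 34.3 under compound 4, 38.8 and 45.6 under compound 5 and 12.2 and 19.2 under compound 6. MT1X had 9.43 and 11.6 CPM in DMSO, 20.6 and 31.8 under compound 4, 30.1 and 36.4 under compound 5 and 6.38 and 13.0 under compound 6. For both genes compound 6 straddled DMSO, and compound 5 had the higher mean of the 2 compounds that raised them. MT1F changed by 1.08 ± 0.22 (adjusted p = 0.0172) and 1.56 ± 0.21 (adjusted p = 0.00572), and MT1X by 1.32 ± 0.30 (adjusted p = 0.0272) and 1.66 ± 0.30 (adjusted p = 0.0142), under compounds 4 and 5 in the edgeR test. Under compound 6 the log2-fold changes were 0.14 ± 0.23 for MT1F and -0.12 ± 0.32 for MT1X, with fold intervals of 0.775 to 1.56 and 0.557 to 1.53. MT1M was at the edge of detection, with 1 and 0 counts in DMSO, 2 and 5 under compound 4, 13 and 4 under compound 5 and 0 and 1 under compound 6, so no fold is given.

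SLC30A1, the exporter that moves zinc out of the cell, had 72.2 and 71.6 CPM in DMSO, 119.3 and 136.0 under compound 4, 130.2 and 121.9 under compound 5 and 72.5 and 86.3 under compound 6. The libraries of compounds 4 and 5 overlapped each other and stood clear of DMSO, while the lower compound 6 library was level with DMSO. It rose 1.78-fold under compound 4 (log2 0.83 ± 0.12, adjusted p = 0.00596) and 1.75-fold under compound 5 (0.81 ± 0.12, adjusted p = 0.00777) by edgeR. The compound 6 value, 1.11-fold with an interval of 0.915 to 1.33, was not past the threshold (adjusted p = 0.562, edgeR).

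MTF1, which encodes the sensor itself, had 15.99 and 18.3 CPM in DMSO, 13.1 and 17.8 under compound 4, 18.4 and 17.4 under compound 5 and 15.3 and 17.8 under compound 6. All groups overlapped DMSO. Its fold intervals were 0.690 to 1.19, 0.796 to 1.36 and 0.735 to 1.27 for compounds 4, 5 and 6, and no adjusted p was below 0.641 by edgeR. The message level says nothing of where the MTF1 protein was or of its activity, which were not measured.

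Of the 13 calls of members against DMSO, 3 held in each fit that left out 1 library (MT2A under compounds 4 and 5, MT1E under compound 4). Under compound 4, 6 members passed, and 2 remained without DMSO replicate 2 or without compound 4 replicate 2 (MT2A and MT1E each time). Under compound 5, 6 passed, with 1 left without DMSO replicate 1 (MT2A) and 2 without DMSO replicate 2 (MT2A and MT1E). Those fits also called few genes in all, for compound 4 43 without DMSO replicate 2 and 152 without compound 4 replicate 2 of 1275, and for compound 5 77 without DMSO replicate 1 and 46 without DMSO replicate 2 of 1112. The direction of every one of the 13 held in them.

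**Figure D2:**
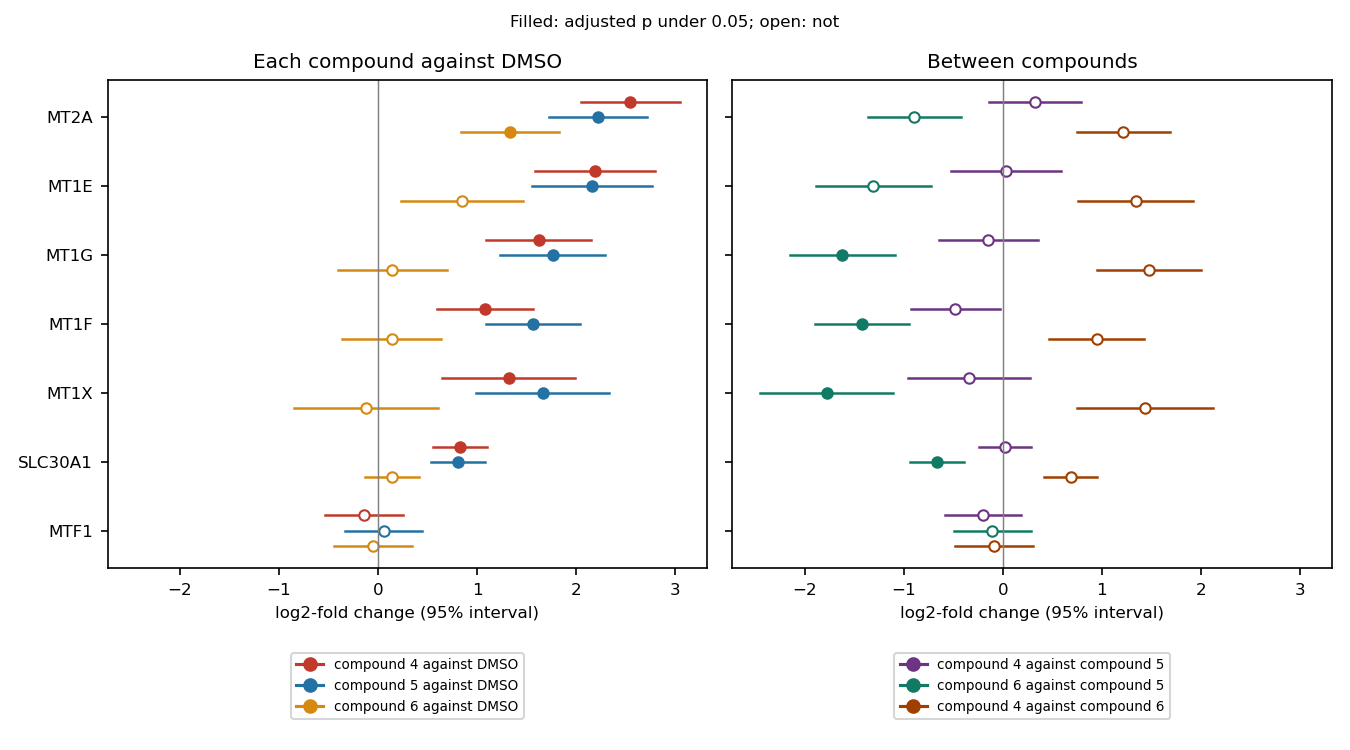
Log2-fold change (horizontal axes, with 95% intervals) of the 7 tested members for each compound against DMSO and for the 3 pairs of compounds, with filled points for an adjusted p under 0.05 in the edgeR test. Against DMSO 6 members are filled under compound 4, 6 under compound 5 and 1, MT2A, under compound 6, and MTF1 stays near 0 throughout.

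The 3 pairs of compounds were then compared, with p-values adjusted over all tested genes within each pair. Compounds 6 and 5 differ in ring groups and in the bridge. Under compound 6, 4 members were lower than under compound 5, where 1.03% of all genes were called (0.522% lower). These were MT1X (log2 -1.78 ± 0.30, adjusted p = 0.0293), MT1G (-1.62 ± 0.24, adjusted p = 0.0158), MT1F (-1.43 ± 0.21, adjusted p = 0.0169) and SLC30A1 (-0.67 ± 0.12, adjusted p = 0.0363) in the edgeR test. In fold, MT1X under compound 6 was at 0.291 of its level under compound 5. MT1E (-1.31 ± 0.26, adjusted p = 0.0518) and MT2A (-0.89 ± 0.21, adjusted p = 0.0743) were also lower in both libraries but missed the threshold by edgeR. For all 6 both compound 6 libraries lay below both compound 5 libraries, as for 24.3% of all tested genes. With the day as a block, where 2.01% of genes were called, MT1E and MT2A passed too (adjusted p = 0.00821 and 0.0348), which made 6 members. DESeq2 also called 6, with 2.83% of genes called. The count of 4 fell to 2 in a fit of the 4 libraries alone, without DMSO replicate 1, without DMSO replicate 2 or without compound 5 replicate 1, and to 0 without compound 5 replicate 2 or compound 6 replicate 1. Calls over all genes were also fewer there: 0.376% in the 4 libraries alone, 0.433% and 0.438% without DMSO replicates 1 and 2, 0.269% and 0.74% without compound 5 replicates 1 and 2, and 0% without compound 6 replicate 1, where the 0 members say nothing about the members.

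Compounds 4 and 5, which both carry tert-butyl groups and differ in the bridge and in methyl against further tert-butyl groups, were not told apart on any member by the edgeR test, where 0.313% of all genes were called. Of the 7 members 0 were called, 1 had an unadjusted p under 0.05, which 16.2% of all genes had, and DESeq2 (1.57% of genes called) and the fit with the day as a block (0.955%) called 0. The member with the unadjusted p was MT1F, at 0.717 of its compound 5 level under compound 4, with an interval of 0.525 to 0.979 (adjusted p = 0.284, edgeR). The libraries of compound 4 lay wholly above those of compound 5 for MT2A and wholly below for MT1F, patterns found in 22.7% and 21.8% of all tested genes. The fold intervals of compound 4 over compound 5 were 0.695 to 1.501 for MT1E, 0.641 to 1.28 for MT1G, 0.514 to 1.21 for MT1X and 0.844 to 1.22 for SLC30A1. The intervals of MT1E, MT1G and MT1X reach below the MT1F value, and that of SLC30A1 does not. MTF1 had 0.666 to 1.14.

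Compounds 4 and 6 are the closest pair in structure, tert-butyl against cyclohexyl. Between them edgeR called 0 of the 7 members and 0 genes in all (0% of those tested), although 6 members and 945 genes (7.05%) had an unadjusted p under 0.05. The 6 members with such a p were all higher in both compound 4 libraries than in both compound 6 libraries, where 19.0% of all tested genes were, with log2 differences of 1.48 ± 0.24 for MT1G, 1.44 ± 0.31 for MT1X, 1.34 ± 0.26 for MT1E, 1.22 ± 0.21 for MT2A, 0.95 ± 0.21 for MT1F and 0.68 ± 0.12 for SLC30A1. With the day as a block a single gene of the transcriptome passed (0.00746% of those tested), and it was MT1G (adjusted p = 0.0262). DESeq2 called 59 genes (0.44%), 6 of them these members, with adjusted p from 2.3e-07 (MT1G) to 0.0195 (MT1F). Without the filter on low counts edgeR also called 6, where 1.12% of genes were called. A call on this pair therefore turned on the method.

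The summed level of the 10 protein-coding MT1 and MT2 genes, which does not depend on how reads were split among the copies, was 101.4 and 112.9 CPM in DMSO, 376.5 and 521.5 under compound 4, 406.7 and 449.0 under compound 5 and 139.4 and 232.5 under compound 6. Every treated library was above both DMSO libraries. The means were 107 ± 8.15 CPM (SD, n = 2) in DMSO and 449 ± 103, 428 ± 30.0 and 186 ± 65.8 under compounds 4, 5 and 6, or 4.19-fold, 3.99-fold and 1.74-fold over DMSO. On the log2 scale the compound 6 value was 0.80, and 0.38 without compound 6 replicate 2. The 8 annotated metallothionein pseudogenes in the table had 0 counts in every library. The spread between the days was part of these values. Each of the 4 groups gave 1 pair of libraries, and the 5 tested metallothioneins were read in each pair. In 18 of these 20 readings the day 2 library was the higher. The 5 genes moved together, so the 20 are not independent, and the share over all genes is not given. SLC30A1 had day 2 to day 1 ratios of 0.992 in DMSO and 1.14, 0.937 and 1.19 under compounds 4, 5 and 6. The pairs of compounds with the day as a block are given above.

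The makeup of the family also differed between groups. MT2A gave 37.8% (95% Wilson interval 34.9 to 40.9) and 35.5% (33.0 to 38.1) of metallothionein counts in DMSO, 52.0% (50.4 to 53.5) and 50.4% (49.2 to 51.6) under compound 4, 45.3% (43.9 to 46.7) and 40.6% (39.5 to 41.7) under compound 5 and 53.6% (51.0 to 56.1) and 52.7% (50.7 to 54.7) under compound 6. Every treated library was above both DMSO libraries, and the compound 5 libraries were the lowest of the treated. These intervals cover counting error only. The MT1F share was lower in every treated library, with 14.3% and 12.5% in DMSO and 6.95% and 6.58% under compound 4, 9.53% and 10.2% under compound 5 and 8.73% and 8.27% under compound 6. MT1E kept a share between 17.9% and 21.5% in all 8 libraries.

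**Figure D3:**
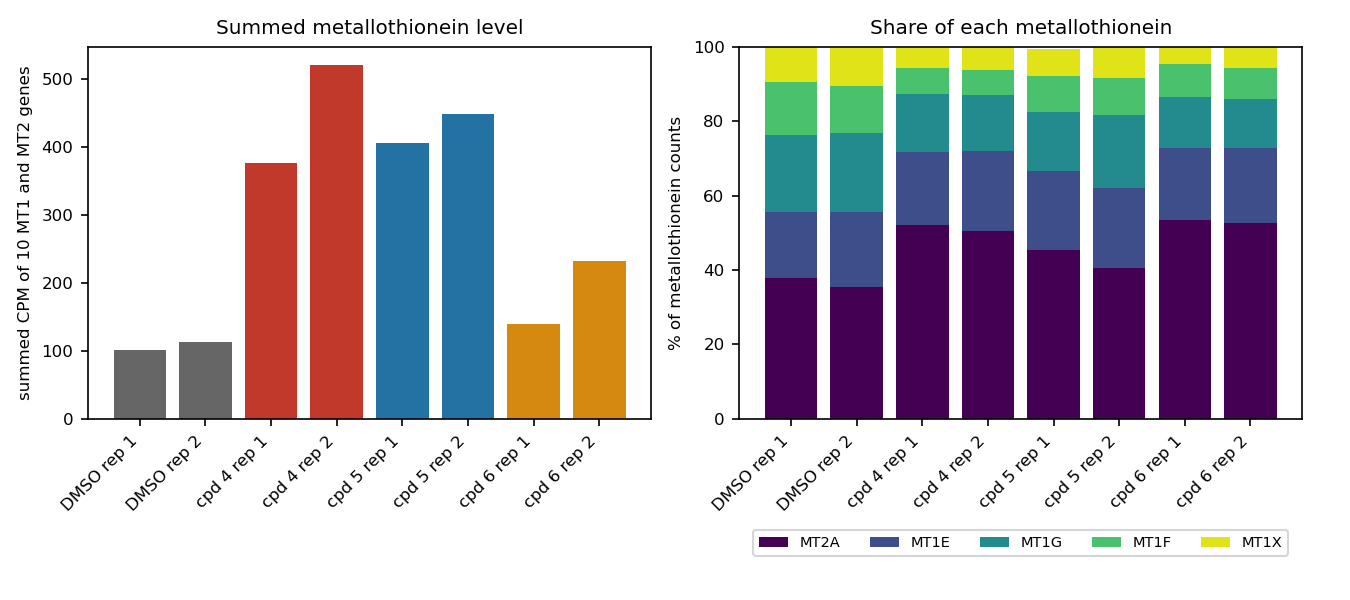
Left, summed CPM of the 10 MT1 and MT2 genes in each library (bars from 0). Right, the percentage of metallothionein counts given by MT2A, MT1E, MT1G, MT1F and MT1X in each library, where the MT2A share is 37.8% and 35.5% in DMSO and 53.6% and 52.7% under compound 6.

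Per length, the DMSO levels ran from 30.2 CPM per kb of merged exons for MT2A and 30.1 for MT1G through 19.4 for MT1E, 13.1 for SLC30A1, 7.57 for MT1F, 5.92 for MT1X and 2.13 for MTF1 to 0.0544 for MT1M. These lengths merge all annotated exons and overstate the transcript where a gene has long alternative forms. Of 14 other metallothionein genes and pseudogenes, 11 were at 0 in every library and none was tested. MT1A had at most 3 counts in a library, MT1B at most 6, and MT1H 1 count in all.

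Across the 8 libraries the 5 tested metallothioneins moved together, with Pearson r between 0.81 (MT1X and MT2A) and 0.98 on log2 CPM, and SLC30A1 followed them with r between 0.94 and 0.97. MTF1 had r between -0.03 and 0.27 with the other members. The libraries of a group share a treatment, so these r values mostly restate the group differences. Among 12724 genes outside the family with at least 1 CPM, SLC30A1 ranked 7 by its r of 0.977 with the summed metallothionein level and MTF1 ranked 6089. The 5 genes most like the family were SLC4A2 (r = 0.992), UBE2Q1 (0.989), LEMD2 (0.985), KEAP1 (0.983) and TMEM198 (0.980). SLC4A2, an anion exchanger, changed by 0.60 and 0.63 on the log2 scale under compounds 4 and 5 and stood at 0.19 under compound 6. The values of KEAP1, the adaptor that marks NRF2 for degradation, were 0.39, 0.41 and 0.08. TMEM198 had 0.66 and 0.61 under compounds 4 and 5. UBE2Q1 (0.39 and 0.39) and LEMD2 (0.27 and 0.29) were not called there, with adjusted p from 0.0547 to 0.132 by edgeR. A high r thus went with small changes, and those of all 5 genes were smaller than those of SLC30A1 under compounds 4 and 5.

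The other genes of metal handling were taken from fixed lists. Of 9 other zinc exporters of the ZnT family, 6 were tested, with 0 higher and 1 lower under compound 4, 1 and 1 under compound 5 and none under compound 6 by edgeR (1 at an unadjusted p under 0.05, 0 by DESeq2). Their medians were -0.11, -0.08 and -0.02 in log2. The gene that fell was SLC30A10, a manganese exporter, at -1.03 (adjusted p = 0.0395) and -1.33 (adjusted p = 0.0192) under compounds 4 and 5 in the edgeR test, in the opposite direction to SLC30A1. SLC30A5, which loads zinc into the secretory pathway, rose by 0.44 under compound 5 (adjusted p = 0.0378, edgeR).

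Of 14 zinc importers of the ZIP family, 12 were tested. By edgeR none was called under compound 4 (4 at an unadjusted p under 0.05, 1 by DESeq2, 2 with the day as a block), and none under compound 6 (0 at an unadjusted p under 0.05 and 0 by DESeq2). Over all tested genes under compound 4 these shares were 27.5%, 10.7% and 12.7%. Under compound 5 SLC39A7, which releases zinc from the endoplasmic reticulum, rose by 0.55 (adjusted p = 0.0171), and SLC39A4, the importer of dietary zinc in the gut, changed by -0.90 (adjusted p = 0.0203) in the edgeR test. The family medians were -0.04, 0.01 and -0.05 under compounds 4, 5 and 6. The lowest value under compound 4 was that of SLC39A8 (-1.48, adjusted p = 0.146, edgeR), an importer of zinc and manganese.

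Of 17 genes of copper handling, 16 were tested, with medians of -0.03, -0.06 and -0.13. COX11, a copper chaperone of cytochrome oxidase, and ATP7B, the liver copper exporter, were lower under compound 4 (-0.45 and -0.42, adjusted p = 0.0314 and 0.0357), and COMMD1, a regulator of copper excretion, was lower under compound 5 (-0.63, adjusted p = 0.0489), by edgeR. DESeq2 did not call COMMD1, and with the day as a block SLC31A1, the copper importer, passed as well under compound 5 (0.37, adjusted p = 0.0435). None was called under compound 6 (2 at an unadjusted p under 0.05, 0 by DESeq2).

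The 13 genes of oxidant and heavy metal stress were all tested, and 6 rose under compound 4, 5 under compound 5 and 1 under compound 6, with 0 lower and medians of 0.38, 0.39 and 0.10. The leading members serve glutathione and thiol supply, which NRF2 controls. SLC7A11, the cystine importer, rose by 1.14, 1.70 and 1.67 (adjusted p = 0.0366, 0.0114 and 0.0478, edgeR), SRXN1, which repairs oxidized peroxiredoxin, by 1.12 and 1.30 under compounds 4 and 5, and GCLM, a subunit of the enzyme that starts glutathione synthesis, by 1.10 and 1.21 (both in the edgeR test). Under compound 6 GCLM (0.99), SRXN1 (0.87), GCLC (0.84) and TXNRD1 (0.77) missed the threshold, with adjusted p from 0.0541 to 0.0897 by edgeR. There 6 of the 13 genes had an unadjusted p under 0.05, among them HSPB1 with a lower value, as 18.6% of all tested genes had. With the day as a block the counts were 8, 7 and 0, where 12.7%, 10.7% and 0.507% of all genes were called under compounds 4, 5 and 6. The chaperones HSPH1 (adjusted p = 0.032 and 0.0477) and HSPA8 (0.0264 and 0.0307) were added under compounds 4 and 5, and the compound 6 call of SLC7A11 was lost (adjusted p = 0.0579), while DESeq2 called 5 of the list there. The list was not uniform. HMOX1 rose under compound 4 only (0.65, adjusted p = 0.0222, edgeR) and had 0.11 and 0.17 under compounds 5 and 6. The chaperones HSPA1A (0.30, 0.27 and -0.29) and HSPA1B (0.06, 0.04 and -0.34) were not called under any compound by edgeR. The lowest gene under every compound was HSPB1, a small heat shock protein (-0.02, -0.13 and -0.42).

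Of 16 glucocorticoid receptor targets, fixed because the receptor also drives metallothioneins, 15 were tested, with medians of 0.30, 0.26 and 0.06. The list went both ways, with 0 called lower by edgeR under any compound. Its lowest values were -0.23 for PER1 under compound 4, and -0.88 and -0.53 for ANGPTL4 under compounds 5 and 6. FKBP5 had -0.19, -0.37 and 0.06 under compounds 4, 5 and 6. KLF9, a transcription factor, rose by 1.23 and 1.65 under compounds 4 and 5 (adjusted p = 0.0334 and 0.014, edgeR), and had 1.57 under compound 6 (adjusted p = 0.0541, edgeR). Under compound 4 it was the only call, and IGFBP1, highest of the list at 1.28, passed with the day as a block (adjusted p = 0.0284, against 0.0552 without). Under compound 5, 4 were called, among them the phosphatase DUSP1 (1.08) and the EGFR inhibitor ERRFI1 (0.92). Under compound 6 none was called by edgeR (4 at an unadjusted p under 0.05, 1 by DESeq2). None of the 25 calls of genes from these lists held in all 8 fits that left out 1 library: each was lost without DMSO replicate 1, without DMSO replicate 2 and without at least 1 library of its own compound.

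**Figure D4:**
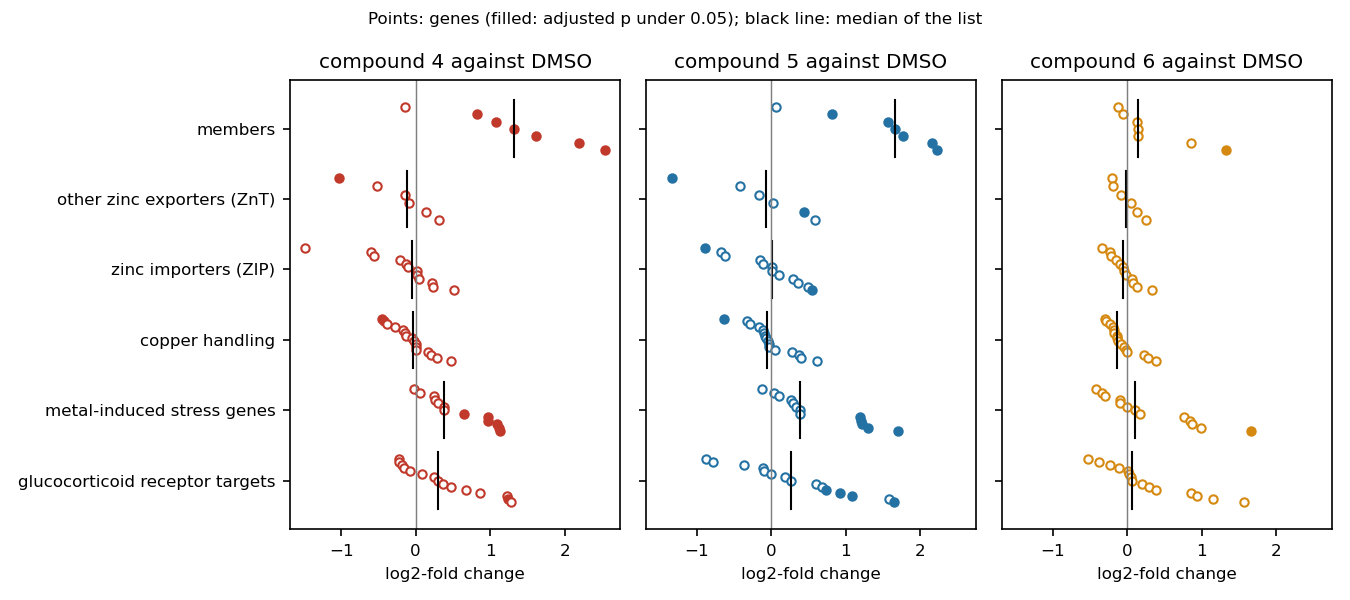
Log2-fold change against DMSO (horizontal axes) of each tested gene in the members and the lists of metal handling, stress and glucocorticoid receptor genes under each compound, filled for an adjusted p under 0.05 and with a black line at the list's median. The members' medians (1.32, 1.66 and 0.14) lie furthest right under compounds 4 and 5, and the ZnT, ZIP and copper medians lie between -0.13 and 0.01.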

How the data were processed

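Libraries from HepG2 cells overexpressing CYP2C19 were made with a directional kit. The authors quantified reads with Salmon 1.5.0 against a GRCh38 transcriptome, used tximeta to sum transcripts per gene, and deposited estimated counts as whole numbers with no scaling. Whether strand was used is not given in the sources used here. The column names mark DMSO replicate 1 and compound 4 replicate 1 as merged and do not say what was merged. Counts were tested in R 4.3.3 with edgeR 4.0.16 (TMM, filterByExpr at a minimum count of 10, quasi-likelihood test, all 8 samples in 1 fit without a block, Benjamini-Hochberg over 13400 genes, threshold 0.05) after tests on simulated data. CPM are counts per 1000000 of the TMM effective library size. With 2 samples against 2, no permutation test can reach 0.05. Alternatives were DESeq2 1.42.0, DESeq2 size factors, the day as a block, the 4 compared samples alone, other filters and leaving out libraries. The labels give a day for each sample and do not say that the groups were handled together on it. Correlations between groups of the difference between days ran from -0.15 to 0.24. Members, lists and tests were chosen with earlier results of these data known. All members are named. For each list, up to 3 called genes a direction and some, not all, of the extremes per compound are named. Further genes were chosen after their values were seen, where few were called, where a block changed the call or to show values that differ from the named calls. Genes beside the cluster are not reported here.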

Additional observations from a re-analysis of the deposited data

How the results depend on the processing

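With 2 samples a group, calls near the threshold move with single libraries, and reads shared among paralogs limit the single metallothioneins more than their sum. Of 672 recomputed log2-fold changes of members, 580 were counted as the same. Of the rest, 41 fell short of the threshold, 26 passed it, 8 untested values moved and 17 changed sign, none of them a called value. For a tested value, the same means its direction and side of the threshold. Fits without 1 day in every group gave no p-value. There the same means a shift below the SE times the square root of 2, and sign was checked for called values only. For the number of members called under compound 6 against DMSO, DESeq2 and no filter gave 2 in place of 1, with 4.08% and 5.87% of all genes called in place of 0.575%. For compound 6 against compound 5, the 4 compared samples alone gave 2 in place of 4, and DESeq2, no filter and the replicate block gave 6, with 2.83%, 4.29% and 2.01% of all genes called. For compound 4 against compound 6, DESeq2 and no filter gave 6 and the replicate block 1 in place of 0, with 0.44%, 1.12% and 0.00746% of all genes called. Leaving out 1 library gave 2 to 6 members under compound 4, 1 to 6 under compound 5, 0 to 1 under compound 6, 0 to 5 for compound 6 against compound 5, and 0 for compound 4 against compounds 5 and 6. With the day as a replicate block, calls of MT2A and MT1E changed for compound 6 against compound 5. That of MT1G changed for compound 4 against compound 6. No other call of a member changed, but MT1E between compounds 4 and 5 turned to -0.0003449. The cause of these shifts was not tested.

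Values that changed sign without 1 library were of uncalled genes. Under the settings that left out 1 library, MTF1 ran from -0.38 to 0.0396 under compound 4, from -0.0436 to 0.16 under compound 5, from -0.16 to 0.0536 under compound 6 and from -0.34 to 0.10 between compounds 4 and 6. Under compound 6, MT1F ran from -0.23 to 0.42, MT1G from -0.22 to 0.43 and MT1X from -0.72 to 0.29. Between compounds 4 and 5, MT1E ran from -0.31 to 0.29, MT1G from -0.38 to 0.0840, SLC30A1 from -0.0836 to 0.11 and the metallothionein sum from -0.18 to 0.29.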

Other observations

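Hepatocyte genes that carry secreted liver proteins were read beside the metallothioneins, since the liver makes both. Of 11 hepatocyte genes, including CYP2C19, 4 were lower under compound 4 by edgeR (APOA1, -0.90; AFP, -0.71; APOB, -0.61; TF, -0.52 in log2) and none was higher. Under compound 5 none was called lower by edgeR, and CYP2C19 (1.05, adjusted p = 0.04, edgeR) and the fibrinogen chain FGB (0.53) were higher. DESeq2 called 4 of the 11 there in either direction, where it called 10.1% of all genes. APOA1 was the lowest of the list under every compound, with -0.52 under compound 5 and -0.91 under compound 6, so its fall was not particular to compound 4. Under compound 6 none was called in either direction by edgeR (5 at an unadjusted p under 0.05, 4 by DESeq2, 2 with the day as a block). Over all tested genes these shares were 18.6%, 4.08% and 0.507%. Each of these 6 calls was lost without DMSO replicate 1 and without DMSO replicate 2.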
